A study of Mus musculus with 4 samples.

Results

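Of the 16755 probe sets measured in mouse kidney epithelial cells with and without fumarate hydratase (FH), 13 carry the name of a zinc finger protein gene, Zfp followed by a digit. They were taken by symbol from the authors' deposited comparison table, which names 1616 probe sets. All of these had an adjusted p under 0.05 in the authors' own comparison of the same cells. The 13 genes are therefore genes already selected for a difference between the genotypes, and how many of the others on the array are Zfp genes could not be counted, since those probe sets have no name here. Mouse RefSeq lists 397 protein-coding genes with such a symbol. The 13 genes stand on 10 chromosomes, with 3 on chromosome 6, a pair on chromosome 7 and 1 on each of chromosomes 2, 5, 8, 10, 15, 16, 17 and 18.

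RNA was hybridised to 4 Affymetrix arrays, 2 for the FH knockout cells (Fh1Δ/Δ) and 2 for their wild-type control (Fh1fl/fl, which carries the floxed but uncut gene). Both lines were immortalised and of C57BL/6 background, and were grown untreated in normoxia, in DMEM with 10% serum, 2 mM glutamine, pyruvate and uridine. The labels call the replicates biological without saying whether they are separate cultures, so each p-value reflects no more than how these 4 arrays vary, which may be technical, and the sources used here do not say whether a line is 1 clone. With 1 knockout line against 1 control line, the loss of FH and any other difference between the lines cannot be told apart. Hypoxia arrays in the same table belong to no sample described here and were not used.

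Most Zfp genes encode C2H2 zinc finger proteins, in which tandem fingers, each folded around a zinc ion, read DNA sequence. Many mouse members also carry a KRAB domain, which recruits the corepressor Trim28 and, through it, histone methylation and heterochromatin proteins. Such KRAB zinc finger proteins form one of the largest families of transcription factors and are known for silencing transposable elements and for imprinting. They often lie in clusters of related genes.

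Fh1, the targeted gene, had log2 expression of 10.48 and 10.45 in Fh1fl/fl cells and 9.21 and 9.14 in Fh1Δ/Δ cells, a log2 difference of -1.29 (standard error 0.11, with limma an adjusted p of 0.00579). Both Fh1Δ/Δ values were still above the upper quartile of their array (9.13 and 9.05), and the source of this remaining signal was not tested. In Fh1Δ/Δ cells, 1044 of the 16752 genes tested rose and 668 fell (adjusted p under 0.05). A lower level in these bulk samples can be fewer cells with the RNA or less RNA per cell, which cannot be told apart. Of these calls 61.0% were increases, but 43.3% (807 higher, 1057 lower) with each array centred on its median. The medians of the autosomes differed as well, from -0.30 on chromosome 10 to 0.16 on chromosome 14. The only probe set placed on chromosome Y had a log2 difference of -4.39 (pairs of arrays -4.52 to -4.25), and its cause was not tested. None of the 34 markers of kidney epithelium, fibroblasts, leukocytes and endothelium that were looked for has a name in the table, so the labelled cell type could not be checked by marker.

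The promoter sequences of 4 Zfp genes are shown for context, those of Zfp334 and Zfp422 for having the largest decreases, and those of Zfp30 and Zfp790 as neighbours on chromosome 7 of which only Zfp30 passed the test. No comparison of expression rests on them. Each line gives the 250 bases before the gene's start in RefSeq (GRCm38.p6), 5′ to 3′ on the strand of the gene, with every CG dinucleotide in capitals.
Zfp334, chr2:165388260-165388509, minus strand: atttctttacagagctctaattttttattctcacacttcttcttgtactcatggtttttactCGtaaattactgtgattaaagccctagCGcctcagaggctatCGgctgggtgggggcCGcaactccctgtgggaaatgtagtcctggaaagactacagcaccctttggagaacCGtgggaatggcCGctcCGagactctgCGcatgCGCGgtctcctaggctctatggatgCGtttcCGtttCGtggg
Zfp422, chr6:116628702-116628951, minus strand: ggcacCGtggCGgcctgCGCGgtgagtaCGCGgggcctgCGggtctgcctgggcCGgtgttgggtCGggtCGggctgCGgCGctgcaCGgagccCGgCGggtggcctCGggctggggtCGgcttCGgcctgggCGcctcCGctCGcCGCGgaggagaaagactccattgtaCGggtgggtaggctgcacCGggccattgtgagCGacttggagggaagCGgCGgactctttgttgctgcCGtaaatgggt
Zfp30, chr7:29783718-29783967, plus strand: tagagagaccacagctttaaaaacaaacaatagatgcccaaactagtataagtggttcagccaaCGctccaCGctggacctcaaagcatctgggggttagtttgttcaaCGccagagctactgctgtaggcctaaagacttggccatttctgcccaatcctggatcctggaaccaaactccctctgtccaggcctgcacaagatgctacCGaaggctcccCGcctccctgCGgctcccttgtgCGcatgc
Zfp790, chr7:29815822-29816071, plus strand: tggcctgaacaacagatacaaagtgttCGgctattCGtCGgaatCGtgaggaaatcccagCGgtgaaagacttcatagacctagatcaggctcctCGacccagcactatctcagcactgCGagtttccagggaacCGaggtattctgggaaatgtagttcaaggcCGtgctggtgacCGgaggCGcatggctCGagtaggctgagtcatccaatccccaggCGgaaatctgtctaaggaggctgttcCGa
The Zfp422 window held 29 CG dinucleotides, the most of the 11 windows matched to 10 of the 13 genes, and those of Zfp334, Zfp790 and Zfp30 held 13, 14 and 7. Over all 32851 windows of the table the median was 6, with quartiles of 2 and 16. The member windows ranged from 2, at 1 of the 2 starts of Zfp239, to 29, with a median of 13. Among the genes lower in Fh1Δ/Δ cells by sign, the counts ran from 4 in Zfp52 to 29 in Zfp422. Among those higher by sign, Zfp239 had 2 and 6, Zfp30 had 7, Zfp790 had 14 and Zfp786 had 16. Zfp647, Zfp397 and Zfp828 were not matched to a window. The core letters of the antioxidant response element bound by NRF2 (TGACNNNGC, either strand) stood in the windows of Zfp790 and Zfp280b, against 10.2% of all windows. The core of the hypoxia response element (ACGTG, either strand, which can overlap the former) stood in those of Zfp68 and Zfp263, against 16.6% of all.

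In Fh1Δ/Δ cells 6 of the 13 genes were higher and 7 lower, and for all 13 the arrays of the groups did not overlap, which also held for 66.3% of all genes tested (25.6% higher and 40.7% lower). At an adjusted p under 0.05 from limma, 3 were higher (Zfp30, Zfp647 and Zfp239) and 5 lower (Zfp334, Zfp422, Zfp263, Zfp52 and Zfp828), against 6.23% and 3.99% of all genes. Since the table was made from the same contrast, nothing is read from the number that passed. The median log2 difference was -0.38 over the 13 genes, the value of the middle gene, Zfp280b, and -0.11 over all genes. The SD within a group ran from 0.0021 to 0.24 on the log2 scale (n = 2).

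**Figure D1:**
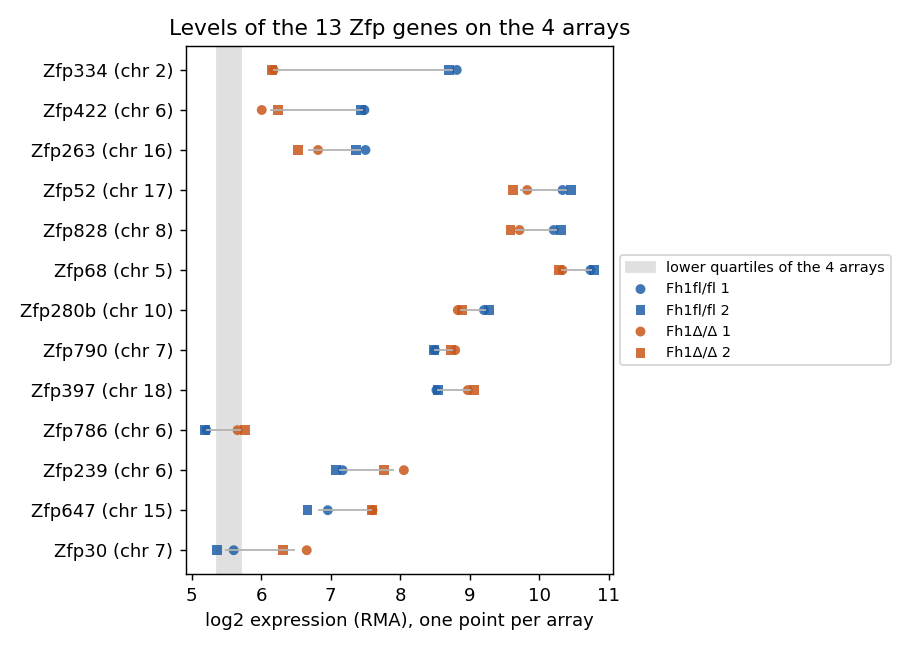
The log2 expression of each of the 13 Zfp genes on each array (circles, replicate 1; squares, replicate 2; blue, Fh1fl/fl; orange, Fh1Δ/Δ; grey line, between the group means), with the range of the lower quartiles of the 4 arrays shaded. Zfp334 has the widest gap between the groups, and Zfp786 and Zfp30 lie at or below the shaded range in Fh1fl/fl cells.

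Zfp334, a KRAB zinc finger gene in band H3 of chromosome 2, showed the largest change. Its log2 expression was 8.81 and 8.70 in the Fh1fl/fl arrays and 6.18 and 6.16 in the Fh1Δ/Δ arrays. Both knockout arrays were low and nearly equal, and the 4 pairs of arrays differed by -2.65 to -2.52. Zfp334 fell by 2.59 on the log2 scale, or 6.01-fold (standard error 0.11, adjusted p = 0.00148 from limma).

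Its surroundings were lower by far less. The other 1413 probe sets placed on chromosome 2 had a median log2 difference of -0.16, and none of them was lower than Zfp334. Among the nearest 20 on each side in probe set order, only 5 of 40 were above 0, and their median was -0.25, with 1 called lower. The only named neighbour in this window was Ncoa5, a nuclear receptor coactivator, with a log2 difference of -0.42. With the median of these neighbours removed from each array, the log2 difference of Zfp334 was -2.35 (adjusted p = 0.00161 from limma).

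Zfp422, also known as Krox-26, in band E3 of chromosome 6, had log2 expression of 7.48 and 7.44 in Fh1fl/fl cells and 6.01 and 6.24 in Fh1Δ/Δ cells. The knockout arrays lay farther apart than the control arrays, but both were at least 1.20 below either control. Zfp422 fell by 1.34 on the log2 scale (2.53-fold, standard error 0.13, adjusted p = 0.00765 from limma). Chromosome 6 as a whole had a median of -0.05, and Zfp422 was the lowest of its window, in which 20 of 40 neighbours were above 0 and the median was 0.03. The log2 differences of named neighbours ranged from 1.36 for Camk1, a calcium-dependent kinase, to -1.19 for the calcium channel gene Cacna1c.

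On the same chromosome, Zfp239 in band F1 went the opposite way. It encodes Mok2, a zinc finger protein that binds both DNA and RNA. Its log2 expression was 7.17 and 7.07 in Fh1fl/fl cells and 8.05 and 7.76 in Fh1Δ/Δ cells, so the knockout arrays were both higher but 0.29 apart. The increase of Zfp239, 0.79 (standard error 0.14, limma's adjusted p = 0.0337), stood against a median of 0.02 in its window, where only 2 of 40 neighbours had a larger difference. One of these, Slc6a12, a betaine and GABA transporter, stood at 3.19. The probe sets on either side of Zfp239 stood at 0.63 and -0.21. Farther out, those before it stood at -0.27, -0.23 and -0.36. Those after it, as far as Slc6a12, were all higher, at 0.21 to 3.19. The third gene of chromosome 6, the KRAB gene Zfp786 in band B2.3, was dim, with 5.21 and 5.20 in Fh1fl/fl cells and 5.66 and 5.76 in Fh1Δ/Δ cells. Both Fh1fl/fl values were under the 25th percentile of their array (5.64 and 5.70), and its log2 difference of 0.51 did not pass the test (adjusted p = 0.0507 from limma). The probe sets on either side of Zfp786 were higher too, at 0.12 and 0.34. Zfp786 passed after quantile normalization, at 0.73, and against its neighbours, at 0.62, whose median was -0.15. It also passed with the chromosome median taken by brightness, at 0.70, but in none of the other 10 of 13 alternatives, among them the plain chromosome median (0.52, limma's adjusted p = 0.0536) and each array left out (adjusted p = 0.112 to 0.191).

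The pair on chromosome 7 consists of adjacent KRAB zinc finger genes in band B1, with no other placed probe set between them. Zfp30 had log2 expression of 5.60 and 5.36 in Fh1fl/fl cells and 6.65 and 6.31 in Fh1Δ/Δ cells. Zfp30 rose by 1.00 (standard error 0.17, limma's adjusted p = 0.0285), the largest increase of the 13 genes and also the largest difference among its 40 neighbours. Both Fh1fl/fl values were under the 25th percentile of their array, where a dim signal gives a fold change little precision. Zfp790 was brighter, at 8.50 and 8.49 in Fh1fl/fl cells and 8.79 and 8.73 in Fh1Δ/Δ cells. All knockout values were above all control values for both genes, but the log2 difference of Zfp790, 0.27, did not pass the test (standard error 0.11, adjusted p = 0.157 from limma). The window around them had a median of -0.16 for Zfp30 and -0.22 for Zfp790, so both stood above that median. The probe sets that follow Zfp790 stood at 0.55, 0.20, -0.02, 0.37 and 0.24, so Zfp790 did not stand out from them. Those just before Zfp30 stood at -0.09 and 0.23.

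**Figure D2:**
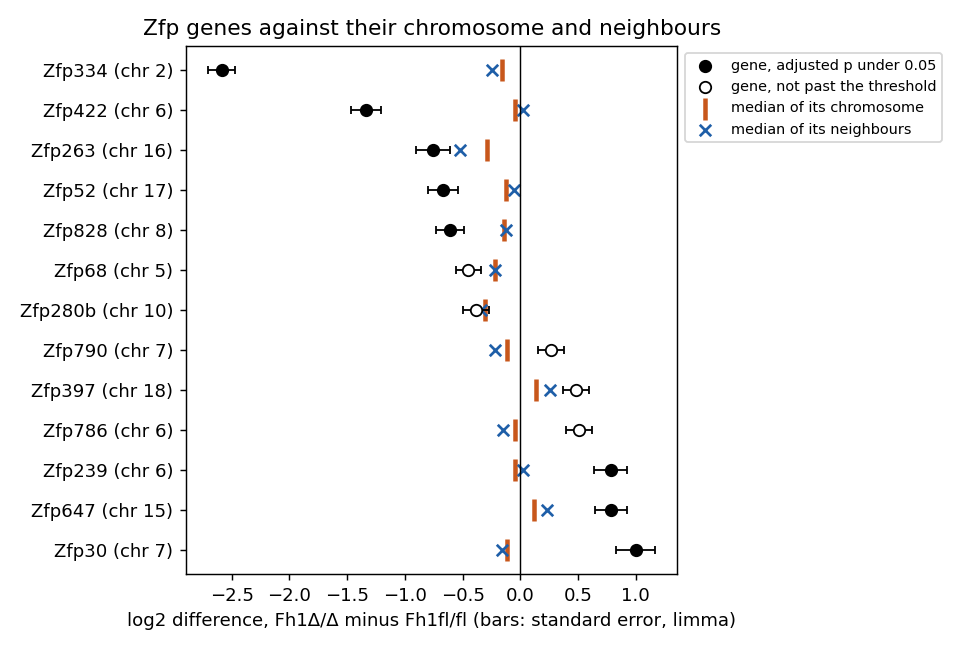
The log2 difference (Fh1Δ/Δ minus Fh1fl/fl) of each Zfp gene with its standard error from limma, filled where the adjusted p is under 0.05, beside the median of the other probe sets of its chromosome (orange bar) and of its nearest neighbours in probe set order (blue cross). Zfp334, Zfp422, Zfp30 and Zfp239 lie farthest from both medians, followed by Zfp647, Zfp786 and Zfp52, while Zfp280b lies close to them.

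The remaining decreases were smaller, and some came with a shift of the region. Zfp263, a repressor with SCAN and KRAB domains in band A1 of chromosome 16, had 7.50 and 7.36 in Fh1fl/fl cells and 6.82 and 6.53 in Fh1Δ/Δ cells. Its log2 difference was -0.76 (standard error 0.14, adjusted p = 0.0374 from limma). Chromosome 16 had a median of -0.29, with 81 other probe sets called lower and 11 higher, and in the 20 neighbours of Zfp263, all on 1 side of it, the median was -0.52. Only 1 of these 20 was higher, and 10 were called lower, among them Pmm2, a phosphomannomutase of protein glycosylation, with a log2 difference of -1.04. Against these neighbours the log2 difference of Zfp263 was -0.21 and did not pass the test (adjusted p = 0.382 from limma).

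Zfp280b, related to the suppressor of Hairy wing of Drosophila, in band C1 of chromosome 10, had 9.20 and 9.27 in Fh1fl/fl cells and 8.83 and 8.88 in Fh1Δ/Δ cells. Its log2 difference of -0.38 (standard error 0.11, adjusted p = 0.0848 from limma) was close to the median of chromosome 10, -0.30, and of its window, -0.34, where only 5 of 40 neighbours were higher. With the chromosome median removed, -0.09 was left, or 23.4% of the difference. Zfp68, a KRAB gene in band G2 of chromosome 5, had 10.73 and 10.78 in Fh1fl/fl cells and 10.33 and 10.29 in Fh1Δ/Δ cells. Its log2 difference was -0.45 (adjusted p = 0.0615 from limma), while chromosome 5 and its window both had a median of -0.22, and 54.7% was left with the chromosome median removed.

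Zfp52, a KRAB gene in band A3.2 of chromosome 17, and Zfp828 stood lower than the median of their neighbours. The probe sets on either side of Zfp52 were low too, with log2 differences of -0.51 and -0.75. Those beside Zfp828 stood at -0.21 and 0.22. Zfp52 had 10.33 and 10.45 in Fh1fl/fl cells and 9.83 and 9.63 in Fh1Δ/Δ cells, a log2 difference of -0.67 (standard error 0.13, adjusted p = 0.0388 from limma), with a window median of -0.06. Zfp828, now named Champ1, which is needed for the attachment of chromosomes to spindle microtubules, had 10.21 and 10.31 in Fh1fl/fl cells and 9.71 and 9.58 in Fh1Δ/Δ cells. It fell by 0.61 (standard error 0.12, adjusted p = 0.0397 from limma) and was the lowest in its window, whose median was -0.12. Against the chromosome median neither passed the test, at -0.57 (adjusted p = 0.0586) for Zfp52 and -0.48 (adjusted p = 0.0718) for Zfp828 from limma, although most of the difference stayed (85.7% and 79.3%). Zfp52 passed against its neighbours (-0.61, limma's adjusted p = 0.0404) and with the chromosome median taken by brightness (-0.65, adjusted p = 0.0377), while Zfp828 passed in neither.

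Among the higher genes, Zfp647 and Zfp397 lay on chromosomes with positive medians. Zfp647, in band D3 of chromosome 15, had 6.96 and 6.67 in Fh1fl/fl cells and 7.60 on both Fh1Δ/Δ arrays. Zfp647 rose by 0.79 (standard error 0.14, limma's adjusted p = 0.0321) and was the highest of its window. That window had a median of 0.23 and the chromosome 0.12, with 90 other probe sets called higher and 13 lower, and Zfp647 did not pass the test against its neighbours (0.55, adjusted p = 0.0755 from limma). It passed with the chromosome median removed (0.66, limma's adjusted p = 0.0483) and with that median taken by brightness (0.95, adjusted p = 0.0269). Zfp397, a SCAN domain gene in band A2 of chromosome 18, had 8.52 and 8.54 in Fh1fl/fl cells and 8.97 and 9.06 in Fh1Δ/Δ cells. Its log2 difference of 0.48 did not pass the test (adjusted p = 0.0552 from limma), and 27 of its 39 neighbours were higher too, with a median of 0.25. Of these, Impact, a regulator of translation, had a log2 difference of 1.37.

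**Figure D3:**
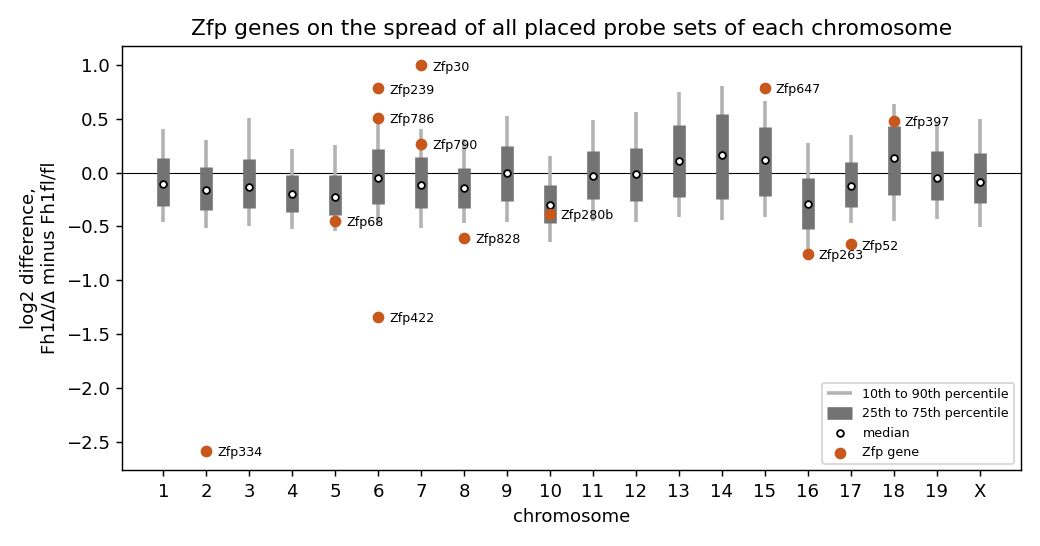
The log2 difference (Fh1Δ/Δ minus Fh1fl/fl) of the 13 Zfp genes (orange) on the spread of the placed probe sets of each chromosome, with the 25th to 75th percentile as a thick bar, the 10th to 90th as a thin bar and the median as a white point. Chromosomes 10 and 16 lie low and chromosomes 13, 14, 15 and 18 high, and Zfp334 and Zfp422 lie far below the bars of chromosomes 2 and 6. Chromosome Y, with 1 placed probe set, is not drawn.

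In all, 9 of the 13 genes differed in the direction of the median of their chromosome, and 9 in that of their neighbours. The exceptions were Zfp786, Zfp239, Zfp30 and Zfp790 for the chromosome, and Zfp422, Zfp786, Zfp30 and Zfp790 for the neighbours. Most probe sets of a region share the sign of its median by construction. On the chromosomes of the 13 genes, 17.4% (chromosome 10) to 60.9% (chromosome 18) of the placed probe sets were higher. The share over all genes that went with their median was not taken, so nothing is read from these counts. After the chromosome median was removed, 5 of the 13 passed the test (8.3% of all genes did), and 6 did so after removal of the neighbours' median (8.35% of all genes). When the chromosome median was taken separately for brighter and dimmer probe sets, 7 passed (7.64% of all genes). Zfp334, Zfp422, Zfp239 and Zfp30 passed in the deposited values and under each of these 3 removals. Zfp68, Zfp280b, Zfp790 and Zfp397 passed in none of them, and Zfp263 and Zfp828 passed only in the deposited values. Removing the chromosome median moved the median over the 13 genes, both times the value of Zfp280b, from -0.38 to -0.09. Over all genes the median moved from -0.11 to -0.02.

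**Figure D4:**
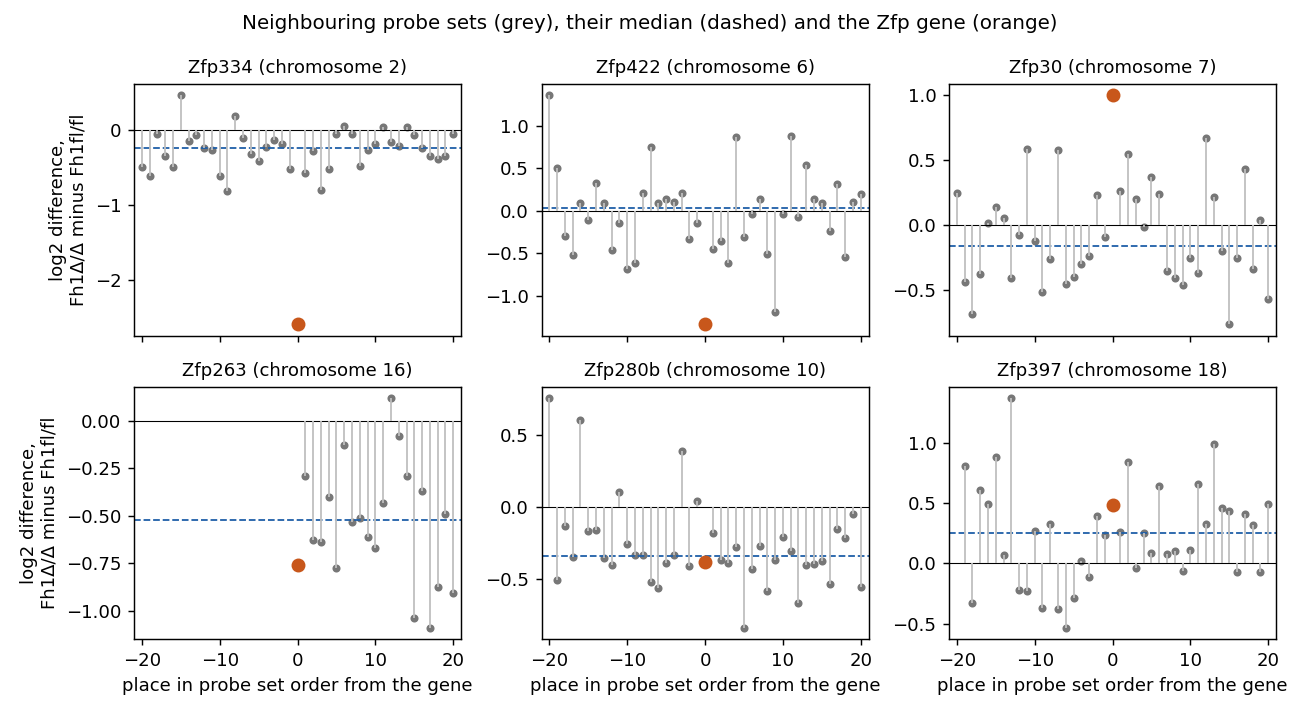
The log2 difference (Fh1Δ/Δ minus Fh1fl/fl) of up to 20 placed probe sets on each side (grey) of 6 Zfp genes (orange), in probe set order, with the neighbours' median dashed; each panel has its own vertical scale. Zfp334, Zfp422 and Zfp30 stand outside the range of their neighbours, while Zfp263, Zfp280b and Zfp397 lie within it.

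Few genes of the machinery that KRAB zinc finger proteins work with are named in the table. Of 32 corepressors and chromatin partners, only Hdac2 and Daxx are, and Trim28 and Setdb1 are not. Hdac2, a histone deacetylase on chromosome 10, had log2 expression of 11.41 and 11.28 in Fh1fl/fl cells and 10.81 and 10.60 in Fh1Δ/Δ cells, a log2 difference of -0.64 (adjusted p = 0.0434 from limma). With the chromosome median removed, its log2 difference was -0.35 and did not pass the test (adjusted p = 0.168 from limma), nor did it pass with any 1 array left out. Daxx, a chaperone of histone H3.3, had a log2 difference of -0.30 (adjusted p = 0.126 from limma).

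Of 12 zinc finger transcription factors with other names in the table, 5 were higher and 7 lower by sign, and 5 passed the test as higher and 1 as lower (6.23% and 3.99% of all genes). Among the 5, Zhx1 rose by 1.14 (limma's adjusted p = 0.0205), Klf9, which glucocorticoids induce, by 0.98, Plag1 by 0.84 and Zeb2, a repressor of Cdh1, by 0.73. Zbtb8a fell by 0.56 (adjusted p = 0.0496 from limma). The balance depended on the setting: by limma, 5 were higher and 4 lower with arrays centred on their medians or with trend and robust moderation, 5 and 6 without the dimmest 25% of genes, and 2 and 4 without the dimmest 50%. Over all genes these settings gave 807 higher and 1057 lower, 1854 and 1471, 1749 and 1526, and 1693 and 1245. With any 1 array left out, most calls of these 12 genes were lost, as over all genes. Of 13 genes with other kinds of zinc finger names, 3 passed the test as higher and 6 as lower (6.23% and 3.99% of all genes). Among them, the palmitoyltransferase Zdhhc2 had a log2 difference of -0.80 and the RNA uridylyltransferase Zcchc6 one of 0.90. With any 1 array left out, most calls of these 13 were lost too. With the median of the chromosome, the same by brightness, or that of the neighbours removed, 3, 2 and 2 passed limma as lower. As higher, 2, 1 and 3 did. Over all genes these removals gave 999 higher and 391 lower, 941 and 339, and 998 and 401. The genes of both lists too are in the table because they had passed the authors' comparison.

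Leaving out 1 array leaves a group with 1 array, and many calls were lost over all genes as over the 13. No count of calls is given for these fits. Across them, the log2 difference of Zfp334 ran from -2.64 to -2.53 and that of Zfp422 from -1.45 to -1.22. That of Zfp263 ran from -0.90 to -0.61 and that of Zfp30 from 0.83 to 1.17. Whether probes of a Zfp gene also bind the RNA of related genes was not examined.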

How the data were processed

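Total RNA was labelled for Affymetrix whole-transcript arrays. RMA and Partek, with mm9 as build, are listed in the notes of the submitters (no versions given). Deposited values were log2 expression of 16755 probe sets after the authors' normalization, beside a table of 1616 probe sets with names and the p-values and fold changes of their own comparison, which were not used beyond the choice of members. In all, 12 columns of other arrays in the deposited tables were not used. The log2 values of both sources were identical.

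The members and lists were chosen with earlier results of these data known. The test was limma's moderated fit (version 3.58.1, R 4.3.3), two-sided and with genotype as the only term, over 16752 genes, 1 probe set per named gene, with Benjamini-Hochberg adjustment, and the fit was tested on simulated data. Chromosomes came from the table (1331 probe sets) or, if absent, from the nearest named probe set on both sides where these were on 1 chromosome (16081 placed in all); of 1285 probe sets tested so, 1283 were right. Probe set order followed RefSeq position in 1098 of 1123 adjacent named pairs on 1 chromosome. Neighbours are the nearest 20 placed probe sets on each side. To remove a shift, the median deviation of the chromosome or neighbours was subtracted from each array. The rule for named genes took members called with a difference of 1 or more, those that lose the call or most of their difference when the chromosome shift is removed, those on chromosomes with 3 or more members, the lowest and highest by level, and Fh1; the other members, the neighbours and the genes of other lists were chosen after their values were seen. Gene names and promoter windows came from RefSeq (GRCm38.p6). By RefSeq transcript 13 of 13 genes matched, 1 under another current name, and 10 of them had a promoter window. Precision is limited by the 4 arrays. Alternatives were the replicate block, each array left out, no moderation, trend and robust moderation, quantile normalization, centring, filters on dim probe sets, all probe sets, other thresholds and the removal of shifts. The values of 1 gene of the other lists are not reported here.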

Additional observations from a re-analysis of the deposited data

How the results depend on the processing

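No log2 difference of the 13 Zfp genes changed sign under any alternative. Zfp334 passed in 14 of 15 alternatives (-2.68 to -2.35) and Zfp422 in 13 of 14 (-1.45 to -1.15), both failing only without moderation, while Zfp790 passed in none. With 3 genes higher and 5 lower in the main setting, a threshold of 0.01 gave 0 and 2 (197 and 51 over all genes). One of 0.10 gave 5 and 7 (1897 and 2031 over all genes). An unmoderated test called none of the 16752 genes tested, so the failure of Zfp334 and Zfp422 there was fixed by the setting. At an unadjusted p under 0.05 from limma there were 5 and 7, and 6 and 7 without moderation. No share over all genes was taken, and the 13 were selected on the same contrast, so nothing is read from these counts. Leaving out 1 array lost many calls, over all genes as over the 13. Removing the shift of the chromosome, the same by brightness, or that of the neighbours gave 2, 3 and 3 lower genes. Over all genes 391, 339 and 401 were lower. The median log2 difference over the 13 genes, here always that of Zfp280b, moved from -0.38 to -0.0896, -0.0636 and -0.0728. Over all genes the median moved from -0.107 to -0.0232, -0.0147 and -0.021, as these removals by construction take off what a region shares. The replicate numbers mark no shared batch in the labels, and the deviations of the same-numbered arrays correlated at 0.11 across genes. With the replicate block 3 genes were higher and 4 lower (1009 and 749 over all genes), Zfp828 no longer passing (adjusted p = 0.0511 from limma). With the dimmest 25% left out 12 Zfp genes were tested, and with the dimmest 50% left out 8.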
